A study of Homo sapiens with 6 samples.

Results

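Lactylation of histone H4 at lysine 5 (H4K5la), an acyl mark derived from lactate, was examined at 31 genes of the hypoxia response in PLC/PRF/5, a human cell line established from a hepatocellular carcinoma. Each gene was taken by its symbol, and peaks were counted where they shared at least 1 bp with its RefSeq span (GRCh38.p14) extended by 5 kb on either side, called its window here. All 31 genes matched, out of 19974 protein-coding genes on chromosomes 1 to 22 and X. The control group was PLC/PRF/5 cells labelled control, with 2 libraries (replicates 2 and 3), and the lactate group was the same line cultured with 20 mM lactate for 24 h, with 2 libraries (replicates 2 and 3). All 4 were precipitated with the same H4K5la antibody. Neither oxygen nor any hypoxia gene was manipulated according to the labels. Nothing in the labels says whether replicates came from separate cultures, so every p-value measures the spread of these libraries alone, and that spread may be technical. The libraries come from 1 cell line, which limits what they represent.

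Cells respond to low oxygen mainly through the hypoxia-inducible factors (HIFs), in which an oxygen-labile alpha subunit (HIF1A, EPAS1 or HIF3A) pairs with the stable partner ARNT. With oxygen present, prolyl hydroxylases encoded by the EGLN genes mark the alpha subunit for VHL-dependent degradation, and HIF1AN blocks its co-activator contact. When oxygen falls the dimer binds DNA at a short core motif and induces genes for vessel growth, acid balance, mitophagy, matrix building and a switch of pyruvate away from mitochondria, which raises lactate output. In liver and hepatocellular carcinoma this programme is known for its links to glycolysis and angiogenesis.

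The deposited lists had between 37951 (lactate replicate 2) and 52959 (control replicate 3) peaks, and both lactate lists were shorter than both control lists. Over the windows of all coding genes, the covered length (bases under peaks) with lactate was 0.515 times that in control. A peak marks where signal passed the caller's threshold, and a window with none is not shown to lack H4K5la. Of 12 hepatocyte marker genes, 7 had no peak in any library, ALB and AFP among them. Among marker genes of other cell types, a peak in all 4 libraries was present at 3 of 4 endothelial, 3 of 4 fibroblast and 0 of 4 leukocyte genes. Peaks do not measure expression, so these counts do not check the identity of the cells.

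The core motif of HIF binding was looked for in the 250 bases upstream of the 5' end of the genes, where the peaks of several of these genes lay. RefSeq promoter sequences (GRCh38.p14) were matched for 26 of the 31 genes. The letters ACGTG, or their complement on the other strand, occurred in 13 of these 26 (50%), against 20.8% of 15813 coding-gene promoters. The letters GCGTG occurred in 10 of 26 (38.5%), against 39.1%, and either motif in 19 of 26 (73.1%), against 50.4%. Overlapping matches on both strands, as in the letters CACGTG, were counted on each strand. The list holds known HIF targets beside genes of the HIF machinery itself, so its share of ACGTG is a description of these letters and not of binding. Shown are 4 of the promoters overlapped by a peak in at least 1 library, and that of BHLHE40, with peaks in control alone. Each runs 5' to 3' on the strand of the gene and ends 1 base before its 5' end. Matches of either motif on either strand are in capitals.
DDIT4: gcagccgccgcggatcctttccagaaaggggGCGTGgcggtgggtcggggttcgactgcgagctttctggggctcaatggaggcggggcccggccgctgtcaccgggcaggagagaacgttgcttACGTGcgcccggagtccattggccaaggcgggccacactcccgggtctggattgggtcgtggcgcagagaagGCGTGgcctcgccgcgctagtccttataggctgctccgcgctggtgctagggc
INSIG2: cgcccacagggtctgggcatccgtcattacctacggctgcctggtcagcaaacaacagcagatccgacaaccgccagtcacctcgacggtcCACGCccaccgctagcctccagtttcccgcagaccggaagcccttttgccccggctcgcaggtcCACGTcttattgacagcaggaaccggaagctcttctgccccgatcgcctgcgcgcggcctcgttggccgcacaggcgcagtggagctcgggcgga
P4HA1: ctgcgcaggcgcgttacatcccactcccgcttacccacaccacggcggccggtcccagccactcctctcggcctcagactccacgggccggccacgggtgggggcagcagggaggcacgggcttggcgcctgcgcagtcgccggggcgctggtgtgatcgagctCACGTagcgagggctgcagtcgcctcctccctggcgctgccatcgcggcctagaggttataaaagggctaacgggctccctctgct
CA9: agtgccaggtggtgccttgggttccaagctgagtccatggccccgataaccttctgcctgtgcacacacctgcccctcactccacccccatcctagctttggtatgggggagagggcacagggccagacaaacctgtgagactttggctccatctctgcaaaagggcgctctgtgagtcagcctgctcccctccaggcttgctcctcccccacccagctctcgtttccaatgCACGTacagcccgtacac
BHLHE40: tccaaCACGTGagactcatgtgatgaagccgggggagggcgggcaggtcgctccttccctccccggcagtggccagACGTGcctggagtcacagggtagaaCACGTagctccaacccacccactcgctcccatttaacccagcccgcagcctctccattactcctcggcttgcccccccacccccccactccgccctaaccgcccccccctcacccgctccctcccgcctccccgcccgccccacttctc
They lie at chr10:72273674-72273923 (plus strand), chr2:118088221-118088470 (plus), chr10:73096867-73097116 (minus), chr9:35673678-35673927 (plus) and chr3:4979187-4979436 (plus). DDIT4 held 3 matches in this stretch, INSIG2 2, P4HA1 1, CA9 1 and BHLHE40 4. No peak overlapped the BHLHE40 stretch. A peak did overlap the promoters of ADM in both control libraries and of STC2 in control replicate 2, which are not shown. Their matches, 1 in ADM and 3 in STC2, were of GCGTG only. The CA9 match began 18 bases upstream of the 5' end. Matches were also present in promoters with no peak in any library, such as those of LOX with 4 and ANKRD37 with 3.

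Counting a peak in any library, H4K5la peaks were present at most, but not all, of the hypoxia genes. A peak in the window was found in all 4 libraries at 11 genes (35.5%; all coding genes 33%): EPAS1, HIF3A, EGLN2, VEGFA, CA12, ADM, DDIT4, BNIP3, STC2, NDRG1 and PDK1. BHLHE40, CA9 and TFRC were marked in each control library but in no lactate library (9.68%; all coding genes 5.77%). P4HA2 alone showed the reverse, marked in each lactate library but in no control library (3.23%; all coding genes 1.11%). HIF1A, EGLN3, P4HA1, ANGPTL4, HMOX1 and INSIG2 were mixed. The remaining 10 genes (32.3%; all coding genes 40.6%) had no peak in any library: ARNT, VHL, EGLN1, HIF1AN, BNIP3L, MXI1, ANKRD37, EPO, PDK3 and LOX. Each of these 4 shares was near that of coding genes in general. By library, a peak was present at 18 and 19 hypoxia genes in control and at 15 and 14 with lactate. Long genes were among those without a peak: ARNT (66.9 kb), MXI1 (79.8 kb) and PDK3 (85.2 kb) had none, as did 32.1% of the 5371 coding genes of 60 kb or longer.

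**Figure D1:**
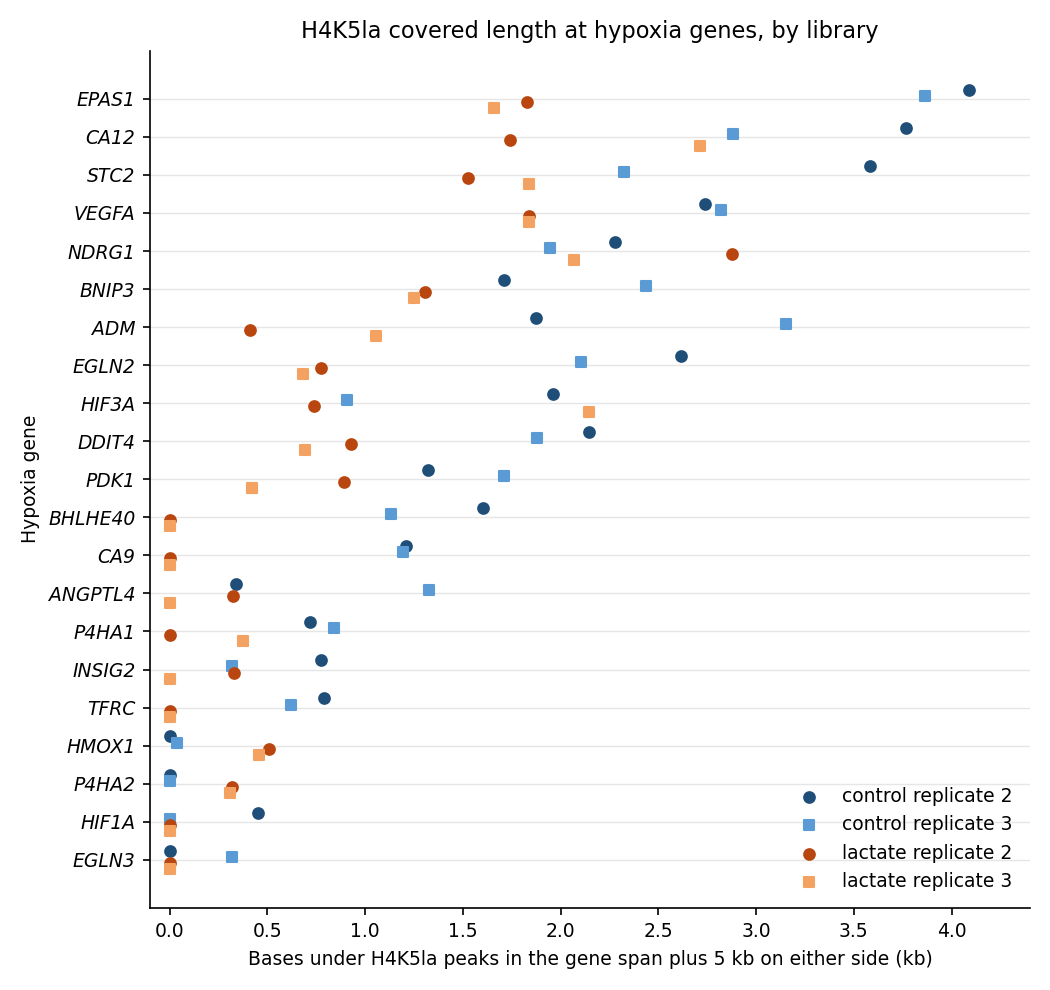
Bases under H4K5la peaks (kb) in the window of each hypoxia gene with at least 1 peak, ordered by the mean of the 4 libraries. Each point is 1 library, and points of a gene are spread vertically for legibility only. EPAS1 stands at the top with 4090 and 3864 bp in control and 1830 and 1661 bp with lactate, while HMOX1 and P4HA2 have their longer values with lactate.

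The hypoxia windows together carried 33976 and 31818 bp of peaks in control, against 16341 and 17505 bp with lactate. The mean was 32897 ± 1526 bp in control and 16923 ± 823 bp with lactate (SD, n = 2), a ratio of 0.514, against 0.515 over all coding genes. The proportion was thus nearly the same for the hypoxia genes and for coding genes in general. The number of peaks was 51.5 ± 0.707 in control and 33.5 ± 0.707 with lactate (SD, n = 2). Their ratio was 0.650, against 0.712 over all coding genes. The covered length per peak was 639 bp in control and 505 bp with lactate, against 794 and 575 bp over all coding genes. Wide peaks, 1 kb or longer, were found 8 and 7 times in control and 2 and 2 times with lactate, and they made up 15.7%, 13.5%, 5.88% and 6.06% of the peaks in hypoxia windows. In the windows of all coding genes the same shares were 21.8%, 21.4%, 10.1% and 9.64%. The share at hypoxia genes was the smaller in every library, but it rests on few peaks and the difference was not tested. In both lactate libraries the wide peaks were those of STC2 and VEGFA. When each library was cut to its 37951 peaks of highest -log10 p, the ratio of covered length was 0.711 for the hypoxia genes and 0.649 for all coding genes.

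Covered length was longer in both control libraries than in either lactate library at 14 of the 31 genes (45.2%; all coding genes 32.8%), and longer in both lactate libraries at 2 (6.45%; all coding genes 3.4%). For a single gene an exact permutation test, two-sided, has 6 ways to assign the 4 libraries and cannot go below p = 0.333, the value that each of these 16 genes gave. A limma fit on log2(covered bp + 500) across the 11870 coding genes with any peak was therefore used for calls at an adjusted p of 0.05 (Benjamini-Hochberg). In it, 6 of the 21 hypoxia genes with any peak were called lower with lactate (EPAS1, EGLN2, CA9, DDIT4, BHLHE40 and TFRC), where 27.1% of all genes tested were, and HMOX1 was called higher, where 1.47% were. A gene without peaks in 1 group could enter the fit only through the other group, so these counts give no support by themselves. The median log2 difference was -0.66 for the 21 hypoxia genes and -0.51 for all genes tested. Centring the libraries on their median moved the median of all genes to 0.03 and that of the hypoxia genes to -0.12, and turned the values of VEGFA, CA12 and BNIP3 positive (0.052, 0.039 and 0.022). None of the 7 calls remained in limma with 37951 peaks per library (smallest adjusted p 0.0591, 3 genes at an unadjusted p under 0.05) or with centred libraries (0.0627, 8 genes). Without lactate replicate 2 or without lactate replicate 3 there was also no call among the hypoxia genes in limma (smallest adjusted p 0.0791 and 0.0759, with 10 genes at an unadjusted p under 0.05 in each). Without control replicate 2, and likewise without control replicate 3, EPAS1, EGLN2 and DDIT4 were not called. CA9, BHLHE40 and TFRC then had only the spread of a pair of lactate libraries at 0 bp, so their calls there say nothing. When genes without any peak were kept in the limma fit, EPAS1 alone of the 6 was called lower (adjusted p = 0.0428). In that fit HMOX1 was not called higher (limma adjusted p = 0.0847), while P4HA2 was (0.0427). HMOX1 was not called without control replicate 2 (limma adjusted p = 0.0523).

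**Figure D2:**
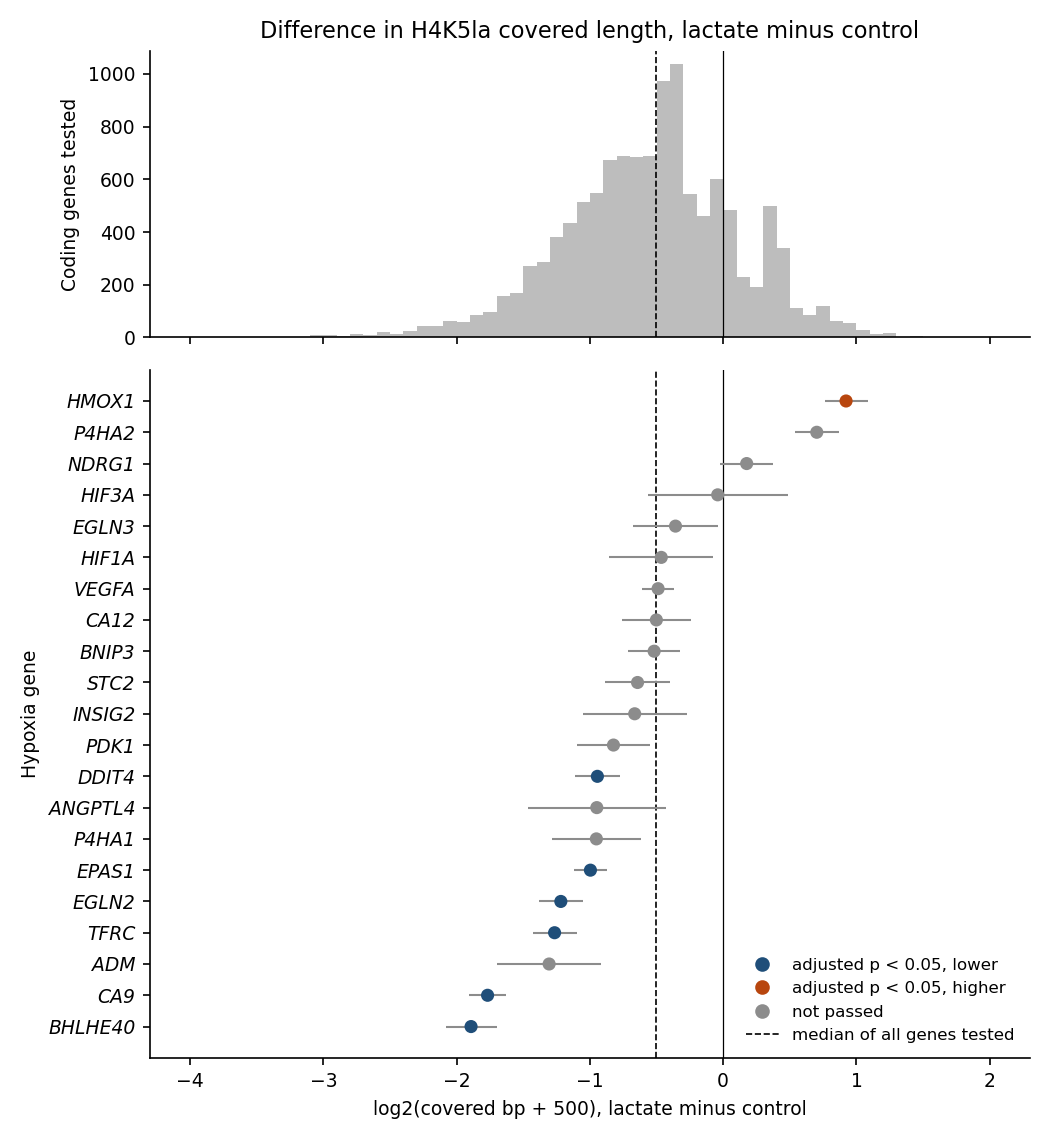
Upper panel, number of coding genes tested by their difference in log2(covered bp + 500), lactate minus control. Lower panel, the same difference with its SE for the 21 hypoxia genes with a peak in any library. The dashed line is the median of all genes tested (-0.51), and 18 of the 21 genes lie below 0.

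Among the HIF subunit genes, EPAS1 and HIF3A carried the mark in all libraries, while HIF1A barely did and ARNT did not. EPAS1, which encodes an oxygen-labile HIF subunit and lies on chromosome 2 from 46297407 to 46386697, held 7 and 5 peaks in control and 5 and 4 with lactate. Its covered length was 4090 and 3864 bp in control and 1830 and 1661 bp with lactate, and limma gave a log2 difference of -0.996 (SE 0.124, adjusted p = 0.0224). The 2 groups did not overlap, and every EPAS1 peak lay at least 55.3 kb downstream of the 5' end. With 37951 peaks per library EPAS1 covered 1970 and 1694 bp in control and 1830 and 1661 bp with lactate, so the groups overlapped and the log2 difference was -0.053 (limma adjusted p = 0.844). The region from 46377188 to 46378271, inside the gene, held a peak of 1066 and 982 bp in control and of 418 and 468 bp with lactate. By the authors' fold enrichment this region stood at percentiles 76.2 and 75.3 of the control lists and 95.2 and 96.0 of the lactate lists, so its narrower lactate peaks ranked higher within their lists. The fold enrichment values themselves were 8.97 and 9.51 in control and 13.4 and 14.2 with lactate, and since they belong to separate lists they do not measure a change.

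HIF3A, a HIF subunit with variants that oppose the others, covered 1962 and 908 bp in control and 738 and 2145 bp with lactate. These ranges overlap, and the log2 difference was -0.04 (SE 0.52, limma adjusted p = 0.966). Its regions differed more than its total did: the region 24.6 to 25.0 kb downstream of the 5' end was marked with lactate only, in both libraries, and the region at 32.1 to 32.6 kb in control only, in both libraries. HIF1A had a single peak of 452 bp in control replicate 2, from 389 to 840 bp downstream of its 5' end, and none in the other 3 libraries.

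Of the 5 oxygen-sensing genes, EGLN2 was marked in all libraries, EGLN3 in control replicate 3 alone with a peak of 321 bp, and VHL, EGLN1 and HIF1AN in none. EGLN2, the gene of a HIF prolyl hydroxylase on chromosome 19 from 40799191 to 40808434, covered 2617 and 2106 bp in control and 772 and 680 bp with lactate. Both lactate values were below both control values, and limma called EGLN2 lower, with a log2 difference of -1.22 (SE 0.16, adjusted p = 0.0239). The region 7.3 to 8.1 kb downstream of its 5' end had a peak in all 4 libraries, of 718, 637, 772 and 680 bp in the order control 2, control 3, lactate 2 and lactate 3. That peak was as wide with lactate as in control. The shorter total came from regions at 1.2 to 2.3 kb and 10.2 to 10.8 kb, with a peak in the control libraries alone. A peak of 421 bp at 3.5 to 4.0 kb, in control replicate 2 only, also added to it. The region at 10.2 to 10.8 kb lies outside the gene and overlaps CYP2T1P. By fold enrichment the region at 1.2 to 2.3 kb ranked at only percentiles 1.85 and 1.56 of the control lists. At a -log10 q of at least 5 EGLN2 was not called (log2 difference -0.60, limma adjusted p = 0.163). The readthrough gene RAB4B-EGLN2 overlaps the peaks inside EGLN2, so they cannot be given to 1 of the 2 genes.

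**Figure D3:**
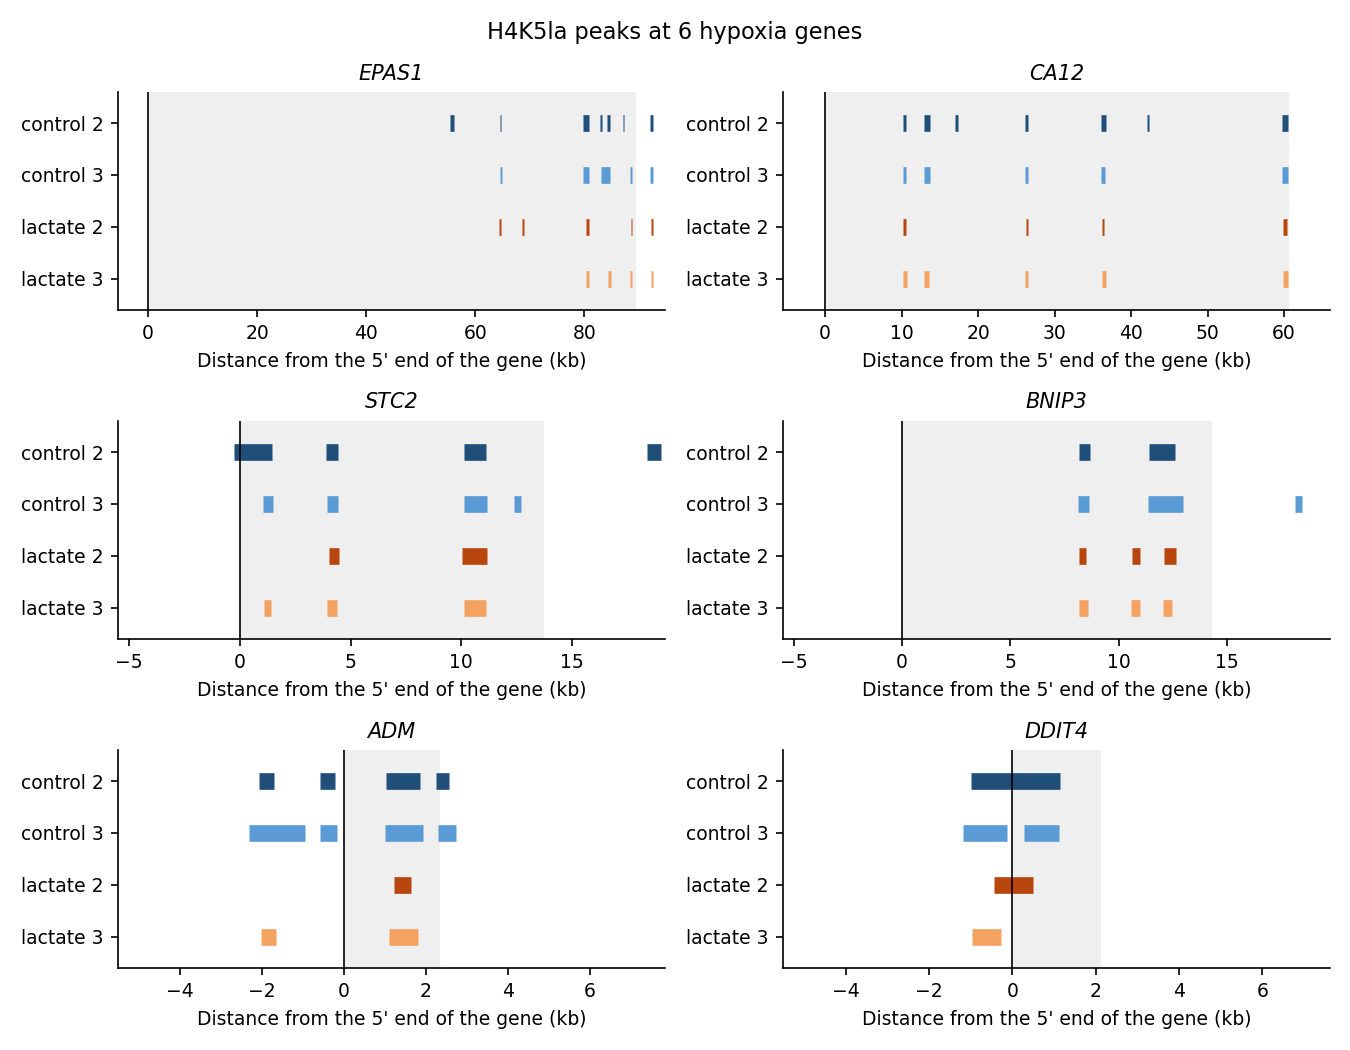
H4K5la peaks in each library along 6 hypoxia genes, against distance from the 5' end of the gene (kb, positive downstream). Grey shading is the gene span, and each bar is 1 peak drawn to scale. Peaks at CA12, STC2 and BNIP3 recur at the same distances across libraries, and the DDIT4 peaks sit around the 5' end.

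The carbonic anhydrase genes CA9 and CA12, whose membrane enzymes buffer acid outside the cell, differed from each other. CA12, on chromosome 15 from 63321378 to 63381846, covered 3769 and 2883 bp in control and 1742 and 2715 bp with lactate, a log2 difference of -0.50 (SE 0.26, limma adjusted p = 0.261). The lowest control value was above the highest lactate value by a margin smaller than the spread within either group. CA12 held the peaks of highest fold enrichment among the hypoxia genes in every library, but they were different peaks. In control the best was the region 36.1 to 36.7 kb downstream of the 5' end, at percentiles 99.9 and 97.8 of the lists, which stood at 37.4 and 58.4 with lactate. With lactate the best was the region at 10.1 to 10.6 kb, at percentiles 99.8 and 99.9, which stood at 87.1 and 63.9 in control. Both regions had a peak in all 4 libraries, so the order of the peaks within the gene differed between the treatments while presence did not.

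CA9, on chromosome 9 from 35673928 to 35681159, covered 1211 and 1194 bp in control and 0 bp in both lactate libraries (limma log2 difference -1.77, SE 0.14, adjusted p = 0.0169). CA9 entered the fit only through its control peaks, and with genes without a peak kept in, its limma adjusted p was 0.0655. The region shared by the control libraries, 35684750 to 35685960, lay beyond the end of CA9 and inside TPM2, a tropomyosin gene. Control replicate 3 had a further peak from position -353 to -5 relative to the 5' end, over the motif match printed above, with a fold enrichment of 3.16 at percentile 1.75 of its list. No CA9 peak lay inside the gene itself.

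Of 5 genes of secreted hypoxia factors, EPO (the red cell growth factor erythropoietin) alone had no peak in any library (all coding genes 40.6%). VEGFA, the main angiogenic growth factor, on chromosome 6 from 43770211 to 43786487, covered 2737 and 2819 bp in control and 1836 and 1837 bp with lactate. The groups were apart with little spread inside either, and the log2 difference of -0.49 (SE 0.12) missed the limma threshold (adjusted p = 0.0581). Its region from 43781056 to 43782584 had peaks of 1254 and 1361 bp in control and of 1170 and 1172 bp with lactate, and the region from 43780023 to 43780722 had a peak in the control libraries alone. STC2, which encodes the glycoprotein stanniocalcin, covered 3583 and 2322 bp in control and 1524 and 1836 bp with lactate (limma log2 difference -0.64, SE 0.24, adjusted p = 0.150). The STC2 region 10031 to 11138 bp downstream of the 5' end was nearly constant in width, at 1016 and 1027 bp in control and 1108 and 1024 bp with lactate. By fold enrichment it ranked at percentiles 97.6 and 96.4 of the control lists and 98.0 and 99.6 of the lactate lists, high in all of them.

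ADM, the gene of the vasodilator peptide adrenomedullin, is 2325 bp long and covered 1873 and 3152 bp in control against 410 and 1058 bp with lactate. The groups did not overlap, but the libraries of each differed, and the log2 difference of -1.31 (SE 0.39) missed the limma threshold (adjusted p = 0.0915). Each control library had 4 peaks there, including 1 that lay between positions -585 and -165 relative to the 5' end, while the lactate libraries had 1 and 2. The upstream ADM regions overlap SBF2, a neighbouring gene. ANGPTL4, an inhibitor of lipoprotein lipase, covered 338 and 1326 bp in control and 322 and 0 bp with lactate (limma adjusted p = 0.286).

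Of 4 stress and mitophagy genes, 3 had a peak in all libraries (all coding genes 33%). DDIT4, an inhibitor of mTORC1 signalling on chromosome 10 from 72273924 to 72276036, was the only hypoxia gene with a peak within 1 kb of its 5' end in all 4 libraries. Its covered length was 2146 and 1877 bp in control and 926 and 692 bp with lactate, and limma called it lower, with a log2 difference of -0.94 (SE 0.17, adjusted p = 0.0354). The peak of control replicate 2 ran from position -997 to 1148 relative to the 5' end and was the widest in any hypoxia window. The lactate peaks ranked at percentiles 11.1 and 20.4 of their lists and the best control peaks at 63.2 and 62.9, and at a -log10 q of at least 5 DDIT4 had a peak in the control libraries alone. Peaks at DDIT4 also overlap the noncoding gene DDIT4-AS1.

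BNIP3, a mitophagy receptor, covered 1711 and 2435 bp in control and 1308 and 1250 bp with lactate (limma log2 difference -0.52, SE 0.20, adjusted p = 0.151). Its region 11.3 to 12.9 kb downstream of the 5' end had peaks of 1183 and 1609 bp in control and of 581 and 427 bp with lactate. A separate BNIP3 region 10549 to 10995 bp downstream had a peak in the lactate libraries alone, of 407 and 422 bp and at percentiles 80.9 and 77.9. Both overlap the neighbouring gene PPP2R2D. NDRG1, a stress-induced gene on chromosome 8 from 133237175 to 133297252, covered 2280 and 1946 bp in control and 2878 and 2070 bp with lactate. Its groups overlapped and the log2 difference was 0.18 (SE 0.20, limma adjusted p = 0.525), one of 3 positive values among the 21 genes. Single NDRG1 regions differed between the treatments: 133244789 to 133245153 and 133256620 to 133257008 had peaks in the control libraries alone, and 133261837 to 133262262 and 133266031 to 133266420 in the lactate libraries alone. BNIP3L, the paralogue of BNIP3, had no peak.

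BHLHE40, a transcriptional repressor on chromosome 3 from 4979437 to 4985323, covered 1605 and 1135 bp in control and 0 bp in both lactate libraries (limma log2 difference -1.89, SE 0.19, adjusted p = 0.0186). BHLHE40 too entered the fit only through control, and without that filter its limma adjusted p was 0.0675. Its log2 difference was the most negative among the hypoxia genes tested. Its control regions lay just downstream of the 5' end, where the noncoding gene BHLHE40-AS1 also lies, and 7.2 to 7.9 kb downstream, beyond the end of the gene. By fold enrichment the region next to the 5' end ranked at only percentiles 5.58 and 16.9 of the control lists. With 37951 peaks per library BHLHE40 kept peaks in control replicate 3 alone. The other genes with this role had no peak: MXI1, an antagonist of MYC family dimers, and ANKRD37, an ankyrin repeat gene.

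The collagen prolyl hydroxylase genes P4HA1 and P4HA2 differed in sign, and neither passed the test in the main setting. P4HA2, on chromosome 5 from 132190147 to 132227853, covered 0 bp in both control libraries and 320 and 307 bp with lactate, each a single peak in the region from 132215304 to 132215669. The difference (log2 0.70, SE 0.17) missed the limma threshold at an adjusted p of 0.0546. P4HA2 was called higher with the gene span alone (limma adjusted p = 0.0405) and with a pseudocount of 100 bp (0.0311). It was also called without the filter (0.0427) and without the variance trend (0.0357), but in no other fit of all 4 libraries. P4HA1, on chromosome 10 from 73007217 to 73096866, covered 720 and 841 bp in control and 0 and 375 bp with lactate (limma log2 difference -0.95, SE 0.34, adjusted p = 0.129). The control peaks of P4HA1 lay at its 5' end, from position 37 to 756 in replicate 2 and from -158 to 682 in replicate 3. The peak of lactate replicate 3 lay 25.2 kb downstream, so no P4HA1 region was shared by the treatments. LOX, which crosslinks collagen, had no peak.

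Among genes of fuel use, iron and sterol handling, HMOX1 and TFRC stood at opposite ends. HMOX1, the heme oxygenase gene on chromosome 22 from 35381096 to 35394207, covered 0 and 38 bp in control and 510 and 456 bp with lactate, and limma called it higher (log2 difference 0.92, SE 0.16, adjusted p = 0.0342). Its lactate peaks lay in 1 region inside the gene, 35386742 to 35387251, which had no control peak. The 38 bp of control replicate 3 are the edge of a peak outside the gene, and with 10 kb on either side HMOX1 was no longer called in limma. TFRC, the transferrin receptor gene on chromosome 3 from 196049284 to 196082090, covered 788 and 621 bp in control and 0 bp in both lactate libraries, and limma called it lower (log2 difference -1.26, SE 0.16, adjusted p = 0.0235). Like CA9, TFRC entered the fit through control alone, and its limma adjusted p was 0.0952 without the filter. The TFRC peaks lay outside the gene, 36.8 to 37.5 kb from its 5' end, where they overlap ARL8BP1. By fold enrichment they ranked at only percentiles 3.08 and 11.9 of the control lists. With the gene span alone TFRC had no peak.

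PDK1, a kinase that restrains pyruvate dehydrogenase, covered 1322 and 1709 bp in control and 893 and 423 bp with lactate (limma log2 difference -0.82, SE 0.28, adjusted p = 0.116). The region shared by all libraries lay 157.9 to 158.5 kb downstream of its 5' end, near the far end of a span of 168.9 kb. Its relative PDK3 had no peak. INSIG2, which retains the sterol sensor in the endoplasmic reticulum, had 1 peak across its 5' end in 3 libraries, of 772 and 321 bp in control and 332 bp in lactate replicate 2, and none in lactate replicate 3.

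Peaks at gene starts were counted separately. Of the 26 hypoxia genes with a strand in the promoter table, 7 and 6 had a peak within 1 kb of the 5' end in control (26.9% and 23.1%), against 13.7% and 15.4% of coding genes. With lactate 2 and 1 had one (7.69% and 3.85%), against 8.64% and 8.7%. Within 1 kb the hypoxia share was thus the larger in both control libraries and the smaller in both lactate libraries. The counts are small in all 4 libraries, and whether the hypoxia share differs from the coding share was not tested. Within 2 kb the counts were 10 and 10 of 26 in control (all coding genes 16.3% and 18.3%). With lactate they were 3 and 3 of 26 (10.7% and 10.8%), so the hypoxia share was not the smaller there. ADM, BHLHE40 and P4HA1 had such a peak in each control library but in no lactate library (11.5%; all coding genes 4.15%), and no hypoxia gene had it in the lactate libraries alone. Which genes these were depended on the setting: within 2 kb they were ANGPTL4, BHLHE40, EGLN2, HIF3A and P4HA1 (5 genes; all coding genes 4.72%), and at a -log10 q of at least 5 DDIT4 and P4HA1 (2 genes; 3.34%). DDIT4 and INSIG2 supplied the start-site peaks found with lactate, and HIF1A and STC2 in control replicate 2 and CA9 in control replicate 3 were found in 1 library each. The comparison at gene starts was chosen after the values were seen and was given no test. With 37951 peaks per library the counts were 4 and 4 in control and 2 and 1 with lactate, against 8.37%, 9.25%, 8.64% and 8.56% of coding genes, and P4HA1 alone then had one in both control libraries only.

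**Figure D4:**
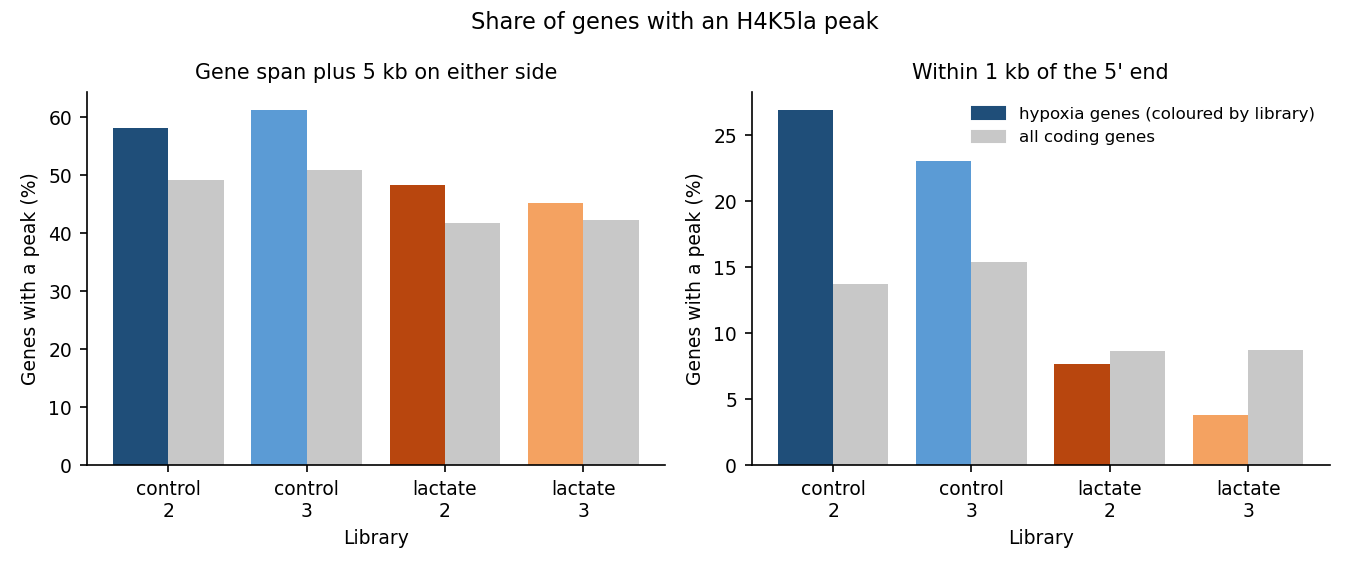
Share of genes (%) with an H4K5la peak in each library, for hypoxia genes (coloured, 31 genes at left and 26 at right) and all coding genes (grey). At left a peak anywhere in the gene span or 5 kb on either side, where hypoxia genes reach 58.1% and 61.3% in control and 48.4% and 45.2% with lactate; at right a peak within 1 kb of the 5' end.

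Merging the peaks of the 4 libraries gave 71 regions in the hypoxia windows, of which 54 lay inside a gene span, 6 across an end and 11 outside. Peaks in all 4 libraries were found in 18 regions (25.4%) of 10 genes, against 29.6% of the 49841 regions in windows of coding genes. Regions in the control libraries alone numbered 15 (21.1%, against 15.0%) in 11 genes, and regions in the lactate libraries alone 6 (8.45%, against 2.67%). The 6 lactate-only regions lay in NDRG1 (2 regions), BNIP3, HIF3A, HMOX1 and P4HA2, all inside the gene span. In NDRG1, BNIP3 and HIF3A they stood beside other regions found in control, so the window counted as marked in all libraries although single regions differed. A further 20 regions (28.2%, against 30.2%) had a peak in 1 library only.

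A further 43 genes of the hypoxia pathway, regulators and targets outside the 31, were described in the same way. A peak in all 4 libraries was present at 13 (all coding genes 33%), in the control libraries alone at 3 (5.77%) and in the lactate libraries alone at 0 (1.11%), while 18 had none (40.6%). By limma 9 of the 25 with any peak were called lower with lactate (27.1% of all genes tested) and 0 higher (1.47%), where 1 (CREBBP, a co-activator gene, log2 difference 0.67, SE 0.15, limma adjusted p = 0.0509) was higher at an unadjusted p under 0.05. The longest covered length was at KDM4B, an oxygen-dependent histone demethylase gene, with 77825 and 83927 bp in control and 28783 and 33280 bp with lactate (log2 difference -1.37, SE 0.09, limma adjusted p = 0.0161). ARNT2, a partner of HIF alpha subunits, covered 7698 and 7062 bp in control and 4299 and 4809 bp with lactate, and was called lower (log2 difference -0.64, SE 0.11, limma adjusted p = 0.0353). NOS3, the endothelial nitric oxide synthase gene, covered 6819 and 7851 bp in control and 2407 and 3108 bp with lactate and was also called lower (log2 difference -1.27, SE 0.17, limma adjusted p = 0.0237). The 3 control-only genes were EP300, an acetyltransferase that HIF recruits, TGFB3, a growth factor, and NFIL3, a transcription factor.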

How the data were processed

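H4K5la ChIP-seq peaks of 4 libraries of PLC/PRF/5 cells were used, and the 2 input libraries were not analysed here. The authors called peaks in each library with MACS2 2.2.6 on hg38, after trimming with Trimmomatic 0.38, alignment with Bowtie2 2.3.4.2 and duplicate removal with Picard 2.18.11, per the submitters' processing notes. The control used by the caller, and the read depth, are not given in the sources used here. Each deposited peak carries the authors' score, their fold enrichment at the summit, and their -log10 p and -log10 q. The score was not used. Fold enrichment only ranked peaks within a list, and -log10 p and q only set alternative thresholds. Every deposited peak had a -log10 q of at least 2.00.

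Gene spans and promoters came from RefSeq (GRCh38.p14). Peaks were counted in each span with 5 kb on either side, with an overlap of at least 1 bp. Covered length was the number of window bases under peaks. limma 3.58.1 (R 4.3.3; empirical Bayes with a variance trend) compared log2(covered bp + 500) between the 2 groups over 11870 coding genes with a peak in any library, with Benjamini-Hochberg adjustment. The script was tested on simulated data with planted differences larger than any found at the hypoxia genes. That test therefore does not bear on calls of the size seen here. The pseudocount of 500 bp makes differences of short covered lengths smaller. Single genes also had exact permutation tests. The genes and lists were chosen with earlier results of these data known. All 31 genes are named; library values were to be given for the 6 with the longest covered length, for genes called by limma and for genes marked in 1 treatment only, and those of other members were added after their values were seen. Alternatives were the peak threshold, the number of peaks, the window, the overlap rule, the pseudocount, the filter, centring, the variance trend, a replicate block and leaving out each library.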

Additional observations from a re-analysis of the deposited data

How the results depend on the processing

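The number of genes marked in both control libraries only (3) was 0 with 37951 peaks in every library (an equal number), 1 with the gene span alone, and 4 to 5 when 1 library was left out (5 without lactate replicate 2). The number marked in both lactate libraries only (1) was 0 at a -log10 q of at least 5 and with 10 kb on either side. It was 2 with an equal number of peaks, with the gene span alone, with the summit required inside the window, and with at least 50% of the peak required inside it. It was 1 to 2 with 1 library left out. The ratio of covered length (0.514) was 0.711 with an equal number of peaks, 0.605 with the gene span alone, and 0.497 to 0.532 with 1 library left out.

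By limma, the 6 genes called lower were 0 with an equal number of peaks, 0 with median-centred libraries, 2 with the gene span alone, 1 without the filter, and 0 to 4 with 1 library left out. The 1 gene called higher was 0 with an equal number of peaks, with 10 kb on either side, with median-centred libraries and with the replicate block. Without the filter it stayed at 1, with P4HA2 in place of HMOX1. It was 2 with the gene span alone, with a pseudocount of 100 bp and without the variance trend, and 0 to 2 with 1 library left out. Where 1 library was left out, the lone library of its group is assumed to vary like the other group. Over all genes tested, 3211 lower and 175 higher calls were 677 and 112 with an equal number of peaks, 1065 and 103 without the filter, and 0 and 0 with median-centred libraries. They were also 0 and 0 without either lactate library. Centring moved the median of all genes from -0.51 to 0.03.

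Single values changed sign for VEGFA (0.052), CA12 (0.039) and BNIP3 (0.022) with median-centred libraries. For NDRG1 the value was -0.021 without lactate replicate 2 and 0.37 without lactate replicate 3. The causes were not tested. Of 206 values under alternatives for 13 named genes, 147 kept their direction and side of the threshold, 49 lost the call, 6 gained it and 4 changed sign. The labels do not say whether the replicate numbers pair the libraries. Deviations of same-numbered libraries were nearly uncorrelated (r = 0.0079), which cannot show that they were prepared apart. With the replicate block 5 hypoxia genes were called lower and 0 higher, with 1708 and 10 calls over all genes. Those 5 were EPAS1, EGLN2, CA9, BHLHE40 and ADM. DDIT4 (limma adjusted p = 0.0610), TFRC (0.0601) and HMOX1 (0.103) were not called with the block, and ADM was called only with it among the fits of all 4 libraries. Read depth is unknown, so how far it limits the peaks found in each library was not tested.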
